A study of Mus musculus with 2 samples.

Results

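The genes described here encode the insulin receptor substrates IRS1 and IRS2, the class I phosphoinositide 3-kinases (PI3K) and the kinase AKT1, followed at the level of nascent transcription in mouse macrophages before and after 1 hr of interleukin-4 (IL-4). The 8 members, chosen by name, were Irs1, Irs2, Pik3ca, Pik3cb, Pik3cd, Pik3cg, Pik3r1 and Akt1. In the whole series 11054 genes had a transcript called for them in either library. A member's transcripts were those whose nearest annotated gene carried its name, 78 of 43122 in control and 96 of 51365 after IL-4. Of the 8 members, 7 had transcripts in both libraries, and Irs1 had none in either.

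GRO-seq (global run-on sequencing) labels the RNA that engaged polymerases are making in isolated nuclei, so its signal follows transcription and not mRNA level. The cells were bone marrow-derived macrophages (BMDMs) of wild-type mice aged 8 to 12 weeks, grown from bone marrow for 6 days with L929 cell supernatant, the source of the macrophage growth factor M-CSF. The control library came from such cells without IL-4, and the other from cells given 20 ng/ml IL-4 for 1 hr. Duplicate run-on reactions were pooled in each condition before sequencing, which left 1 library per condition, so no value below has a replicate, no difference was tested and no p-value is given.

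IL-4 receptors recruit IRS proteins, which are phosphorylated by JAK kinases and then dock the p85 regulatory subunit of PI3K. PI3K converts a membrane lipid to PIP3, and PIP3 recruits AKT, which acts on TSC2, GSK3 and FOXO proteins and on mTORC1. In macrophages IRS2 is the family member best known for relaying IL-4, and the delta and gamma catalytic subunits of PI3K are the ones typical of leukocytes.

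The files give 1 score per called transcript, printed to 1 decimal, and no read counts, so the depth of both libraries is unknown. The value of a gene was the highest score among its transcripts. Ratios of IL-4 over control are given as log2 values centred on the median gene, which stood at -0.38 before centring, and each is followed by the rounding range, the ratios possible when each score lies within 0.05 of its printed value. The rounding range is not a replicate error. Transcripts were called separately in each library and were longer after IL-4 for the genome as a whole, their median length being 227 bp in control against 312 bp with IL-4. Of the 8 macrophage markers, 6 (such as Csf1r and Cd68) had a value in both libraries, while none of the 4 fibroblast or 3 dendritic cell markers had one in either. Of the other blood cell lists, 2 of 5 neutrophil markers were called in each library, 1 of 5 lymphocyte markers in control and 1 of 4 erythroid markers after IL-4, each with a score of 0.6 or less. Of 7 IL-4 response genes, 2 had a value in both libraries, 3 after IL-4 only and 2 in neither. Those in both were Socs1, with a score of 0.3 in control against 2.5 with IL-4, and Mrc1, with 2.7 and 13.1.

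Around the start sites, the letters upstream of 3 members are shown, because Irs2, Pik3cb and Pik3r1 each had a transcript on both strands there in both libraries. The sequences are RefSeq's for build GRCm38.p6, written 5′ to 3′ on the strand of the gene and ending at the base before the start site. They lie at chr8:11008930-11009179 (Irs2), chr9:99140212-99140461 (Pik3cb) and chr13:101768218-101768467 (Pik3r1), all on the minus strand. Capitals mark CACGTG, the E-box, and CCAAT, read on either strand, so that ATTGG is a CCAAT on the other strand.
Irs2: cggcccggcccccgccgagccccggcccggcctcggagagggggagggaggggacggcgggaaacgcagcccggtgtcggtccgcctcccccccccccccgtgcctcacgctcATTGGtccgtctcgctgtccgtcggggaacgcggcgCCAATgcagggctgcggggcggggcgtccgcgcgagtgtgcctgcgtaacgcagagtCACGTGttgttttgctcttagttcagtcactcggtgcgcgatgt
Pik3cb: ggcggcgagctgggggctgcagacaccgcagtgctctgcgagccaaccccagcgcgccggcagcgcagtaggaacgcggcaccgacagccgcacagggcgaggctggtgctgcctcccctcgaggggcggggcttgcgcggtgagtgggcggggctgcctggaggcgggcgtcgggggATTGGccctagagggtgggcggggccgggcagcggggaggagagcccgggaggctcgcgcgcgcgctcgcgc
Pik3r1: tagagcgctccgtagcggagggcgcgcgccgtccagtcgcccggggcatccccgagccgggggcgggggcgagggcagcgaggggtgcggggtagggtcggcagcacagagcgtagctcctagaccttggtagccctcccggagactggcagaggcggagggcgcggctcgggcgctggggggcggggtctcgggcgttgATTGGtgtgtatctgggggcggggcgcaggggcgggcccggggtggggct

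In windows of 250 bases before and 50 after the start site, all 3 were rich in G and C, at 72.0% for Irs2, 79.0% for Pik3cb and 75.7% for Pik3r1, against a median of 52.7% over 32851 RefSeq promoters. The E-box began 44 bases before the Irs2 start site, and CACGTG was present in 7.15% of all promoters. Irs1, whose sequence is not shown, also had CACGTG, at -115. CCAAT matches stood at -137 and -101 in Irs2, at -72 in Pik3cb and at -50 in Pik3r1, a motif held by 37.4% of promoters. Neither spacing of the STAT-type palindrome, TTCNNNNGAA (6.95% of promoters) or TTCNNNGAA (8.3%), was found in any window of a member, counting every RefSeq start site listed for it. These are matches of letters in these windows and say nothing of whether a factor was bound.

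By the highest score, none of the 7 measured members was at least 2-fold higher after IL-4 and none was at least 2-fold lower. Over all 8879 genes with a value in both libraries, 8.06% were at least 2-fold higher and 8.62% at least 2-fold lower. The median centred ratio of the members was -0.21, within the quartiles of all genes (-0.51 and 0.38). Irs2, Pik3r1 and Pik3cd had ratios above 0, of which Pik3r1 and Pik3cd were below 0 without centring, and Pik3cg, Akt1, Pik3ca and Pik3cb had ratios below 0. Without centring 531 genes were at least 2-fold higher and 2161 lower, and 3 members were lower (Pik3ca at -1.22, Pik3cb at -1.32 and Akt1 at -1).

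**Figure D1:**
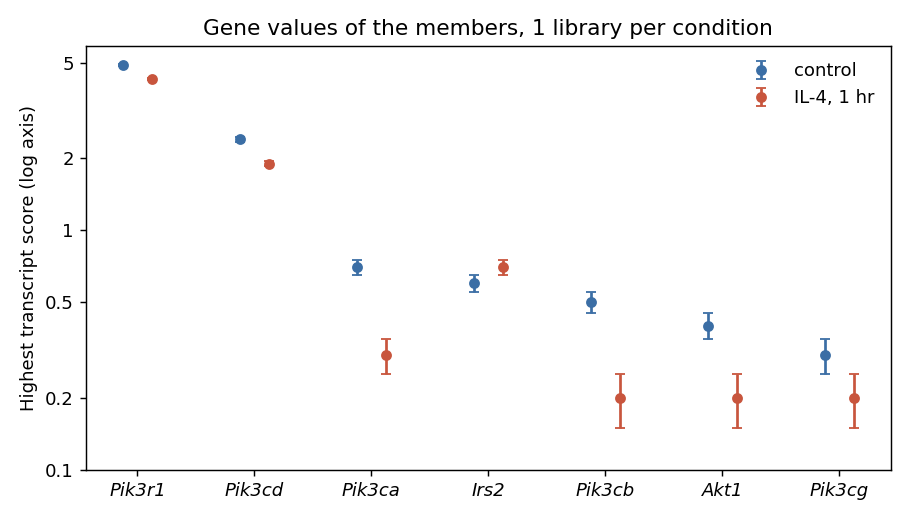
Highest transcript score (log axis) of the 7 members with a called transcript, in control (blue) and after 1 hr of IL-4 (red), with 1 library per condition. Bars show the rounding of each printed score (0.05 either side). Pik3r1 and Pik3cd stand highest in both libraries, and Irs2 is the member whose printed score is higher after IL-4.

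Among the docking proteins, Irs2 (chr8:10984681-11008458 in GENCODE, minus strand) reached 0.6 in control against 0.7 with IL-4, which gives a centred ratio of 0.60 (0.38 to 0.83). It was the only one of the 7 whose printed score was higher after IL-4, and 79.8% of genes had a lower ratio. The ratio was under 2-fold throughout its rounding range. Irs1 (chr1:82233101-82291416, minus strand), which docks the same partners, had no called transcript by name, and none overlapped its gene body on either strand. With the depth unknown, this says only that no transcript was called.

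All the transcripts named for Irs2 lay at its promoter, and there were 3 in each library. GENCODE places the Irs2 start inside the RefSeq transcript, so distances here are from the RefSeq start site at position 11008929. The promoter transcript on the strand of Irs2 was 235 bp long in both libraries, running from 25 to 259 bases past the start site in control (score 0.6) and from -18 to 216 after IL-4 (score 0.7). The divergent transcript on the opposite strand began at -213 in control, with a score of 0.2, and at -264 after IL-4, with a score of 0.5. A weak upstream transcript on the gene's strand had a score of 0.1 in both. Thus of the 3 Irs2 pairs that could be matched between libraries, 2 had a higher printed score after IL-4 and 1 an equal score, while over all 26398 matched pairs 22.2% were higher, 23.0% equal and 54.8% lower.

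Inside the Irs2 gene body the called signal was sparse. Own-strand transcripts covered 1.67% of it in control and 2.30% after IL-4, as 2 segments per library that were named for 9530052E02Rik, a noncoding gene that overlaps Irs2 on the other strand. After IL-4, a segment of 418 bp with a score of 0.2 lay in exon 1, from 696 to 1113 bases past the RefSeq start site. In control the segment nearest the start was 288 bp long with a score of 0.1 and did not overlap it. The other segment, in the intron at an A-rich stretch, had a score of 0.3 in both libraries. Summed over the body as score times length, Irs2 had 61.2 in control against 122.3 with IL-4, a ratio of 0.87 centred on this measure's own median (0.10 to 1.73), whose rounding range crosses 2-fold. The ratio passed 2-fold, at 1.38, with the repeat segments left out and, at 1.88, with scores of 0.1 left out, so the call for the Irs2 body depends on a few short segments. The body sum counts from the GENCODE start, so it leaves out the promoter transcripts described above. Transcripts named for Irs2, all at the promoter and on both strands, summed to 187 in control against 254.9 with IL-4. Their ratio, centred on the median for sums by name, was 0.29.

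**Figure D2:**
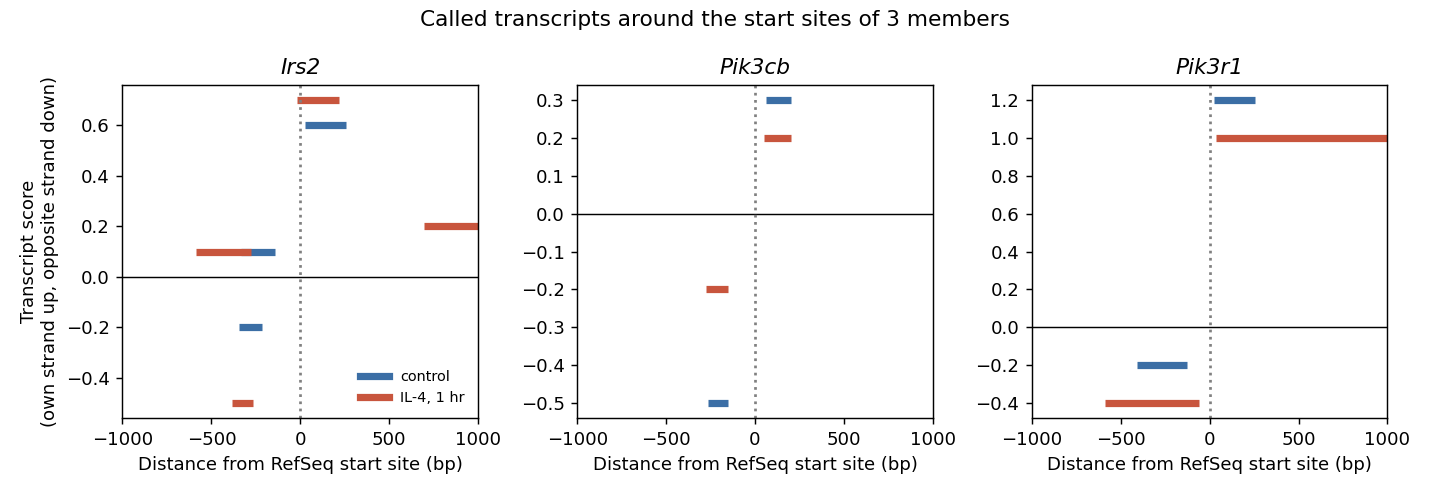
Called transcripts within 1000 bp of the RefSeq start sites of Irs2, Pik3cb and Pik3r1, drawn by distance from the start site (bp) and score, with the gene's strand above 0 and the opposite strand below 0. Control is blue and IL-4 red. At Irs2 the divergent transcript goes from 0.2 to 0.5, at Pik3cb both transcripts have lower scores after IL-4, and at Pik3r1 the gene-strand transcript lengthens from 235 to 1097 bp.

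The 4 catalytic subunits differed in level and in how much of each gene was called. The highest score takes 1 short segment of each gene, so each gene body was also measured as the sum of score times length on the gene's own strand, in units of score times bp. On this measure 16.6% of 8158 genes were at least 2-fold higher after IL-4 and 16.7% at least 2-fold lower, after centring on a median of 0.13. Of the 7 members, 3 were higher (Pik3cd, Pik3cg and Pik3r1) and 1 lower (Pik3cb), and their median was 0.87 against 0 for all genes. That median is the ratio of Irs2, whose sum leaves out its promoter transcripts. The covered length also grew for genes at large, with a median IL-4 to control ratio of 1.37 (quartiles 0.938 and 2.18). The part that calling and segment length play in the member ratios was not tested.

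Pik3cd encodes p110δ, the leukocyte catalytic subunit, and lies at chr4:149649168-149702571 on the minus strand. Its value was 2.4 in control against 1.9 with IL-4, a centred ratio of 0.04 (-0.03 to 0.11). Only Pik3r1 had a higher value among the members, and Pik3cd exceeded 94.8% of genes in control and 95.6% after IL-4. Both values came from the same segment in intron 2, 30802 bases into the gene in control, which overlaps a B1_Mus1 SINE repeat.

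Outside that segment more of Pik3cd was called after IL-4. The gene had 37 named transcripts in control and 46 after IL-4, of which 3 and 14 were at least 500 bp long. Own-strand coverage was 17.5% of the gene in control (9339 bp) against 41.4% with IL-4 (22129 bp), while the mean score over the covered bases was 0.353 and 0.349. The summed signal was therefore 3295 in control against 7731 with IL-4, a centred ratio of 1.10 with a rounding range of 0.69 to 1.52, which reaches below 2-fold. The ratio was 0.50 when segments annotated as repeats were left out (8 of 37 named transcripts in control, 18 of 46 after IL-4), so the 2-fold call did not hold there.

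With all segments counted, the difference was largest in the 5′ part of Pik3cd. With the gene cut into 4 equal parts from its start, part 1 had a summed signal of 888 in control against 3648 with IL-4, a ratio of 4.11 before centring. Part 2 had 421 and 1654, or 3.93. In part 3 the values were 1020 and 1472, a ratio of 1.44, and in part 4 they were 966 and 958, a ratio of 0.991. The ratio was smaller in each part than in the one before it, but this order did not hold without repeat segments, where the ratios were 1.73, 2.82, 1.69 and 1.01 and part 1 had 781 in control against 1353 with IL-4. With all segments counted, genes of 40000 to 120000 bp with a value in both libraries had median ratios of 1.10, 1.00, 1.03 and 1.04 in the same order. The ratio of Pik3cd in part 1 was higher than that of 94.8% of such genes, and in part 4 it was higher than that of 47.7%.

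Several control segments were joined or extended in the IL-4 calls. After IL-4 a segment of 996 bp with a score of 0.8, annotated as an LTR repeat, overlapped 2 control segments of 575 and 157 bp, both with a score of 0.2. Near the RefSeq start site at position 149698708, an IL-4 segment of 1760 bp with a score of 0.6 overlapped 2 control segments of 235 and 173 bp, both with a score of 0.3. Further in, a segment of 373 bp with a score of 0.3 was matched by one of 2132 bp with a score of 0.5, the longest transcript named for any member. Of the 25 matched Pik3cd pairs, 10 had a higher printed score after IL-4, 7 an equal one and 8 a lower one. After IL-4 19 of the 25 were longer, or 76.0%, close to the 71.2% of all matched pairs.

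**Figure D3:**
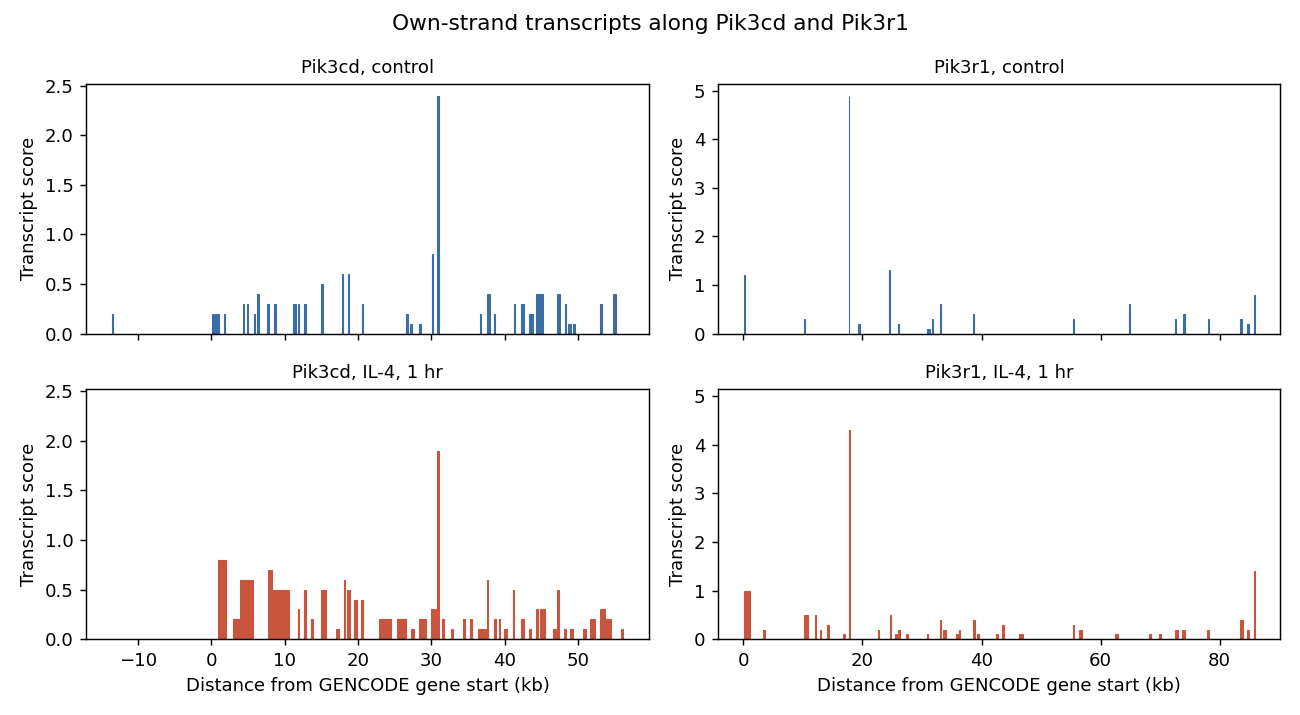
Own-strand transcripts named for or lying in Pik3cd (left) and Pik3r1 (right), drawn by distance from the GENCODE gene start (kb) and score, in control (top, blue) and after IL-4 (bottom, red). Bar width is the transcript's length plus a thin outline, and the vertical scale is shared within a gene. In Pik3cd long segments fill the 5′ part after IL-4, while the intron 2 peak is 2.4 in control and 1.9 after IL-4. In Pik3r1 the highest peak, in intron 2, is 4.9 and 4.3.

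Pik3cg, which encodes the p110γ subunit used by G protein-coupled receptors (chr12:32173473-32208659, minus strand), was at the other end of the range. Its value was 0.3 in control against 0.2 with IL-4, a ratio of -0.21 that could lie on either side of 0 (-0.84 to 0.38). Control had a single segment of 105 bp in intron 10, and IL-4 had 3, the longest of them 765 bp in exon 2 with a score of 0.1. Own-strand coverage was 0.298% and 3.62%, the mean score over covered bases was 0.300 and 0.119, and the summed signal was 31.5 and 151.6. The centred ratio of the sums was 2.14 (1.13 to 2.91), but with scores of 0.1 left out it was 0.59, under 2-fold. The intron 10 segment present in both libraries went from 0.3 to 0.2.

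Pik3cb, which encodes the broadly expressed p110β subunit (chr9:99036654-99140621, minus strand), had the lowest ratio of the members on both measures. Its value was 0.5 in control against 0.2 with IL-4, a ratio of -0.94 (-1.50 to -0.47). Without repeat segments both scores were unchanged. The ratio then reached 2-fold (-1) only because the median used for centring was -0.32 in place of -0.38. The control value came from the divergent promoter transcript, on the opposite strand. There were 7 named transcripts in control and 2 after IL-4. The pair left after IL-4 lay at the promoter shown above, where the divergent transcript had a score of 0.5 in control against 0.2 with IL-4 and the transcript on the gene's strand, in exon 1, had 0.3 and 0.2. The control segments in introns 1, 2 and 4 and in exon 5, with scores of 0.1 to 0.4, had no counterpart, and neither had a segment of 80 bp in intron 8 that was named for another gene (0.5).

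The Pik3cb gene body held little called signal after IL-4. Own-strand coverage was 1153 bp in control, or 1.11% of the gene, and 150 bp after IL-4, or 0.144%, with mean scores of 0.19 and 0.2 over the covered bases. The summed signal was 218.9 and 30.0, a centred ratio of -2.99 (-3.75 to -2.23), below -1 across its rounding range. Only 1.09% of genes had a lower ratio. In part 1 of 4 the sum was 121.2 in control against 30.0 with IL-4, and parts 2 and 3 held 57.7 and 40.0 in control and no called signal after IL-4.

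Pik3ca, which encodes the ubiquitous p110α subunit (chr3:32397671-32468486, plus strand), also had lower scores after IL-4. Its value was 0.7 in control against 0.3 with IL-4, a ratio of -0.84 (-1.21 to -0.51). The same segment gave both values, in intron 15 at a (TG)n simple repeat. Of its named transcripts, 4 of 5 in control and 3 of 4 after IL-4 were annotated as repeats. Without them the ratio was -1.26, past 2-fold, but it set a control segment (0.3) against a different IL-4 segment (0.1). The ratio was -0.42 for the highest own-strand score in the gene and 0 for the transcript nearest the start site. A pair of segments further 5′ in the gene was named for another gene by the nearest-promoter rule. The higher of them, at a T-rich stretch 697 bases into the gene in control, had 1.2 in control and 0.7 after IL-4. Taking all own-strand segments, coverage was 2.26% and 2.57%, the mean score over covered bases 0.355 and 0.177, and the summed signal 567.3 and 322.6, with a centred ratio of -0.94 (-1.61 to -0.36). With scores of 0.1 left out that ratio was -1.40, again past 2-fold.

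**Figure D4:**
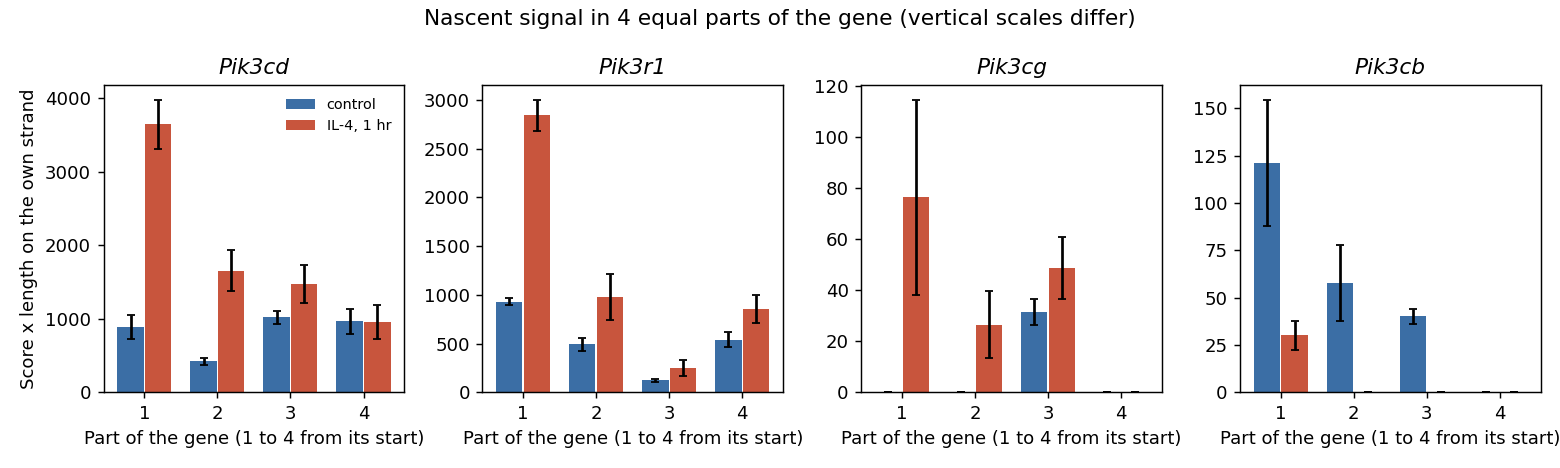
Sum of score times length on the own strand in each of 4 equal parts of the gene, counted from the GENCODE start, for Pik3cd, Pik3r1, Pik3cg and Pik3cb in control (blue) and after IL-4 (red). Bars show the rounding range, and vertical scales differ between genes. In Pik3cd part 1 goes from 888 to 3648 and part 4 from 966 to 958, while Pik3cb has signal after IL-4 in part 1 only.

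Pik3r1 encodes the p85α, p55α and p50α regulatory subunits that bind IRS proteins, and lies at chr13:101680563-101768217 on the minus strand. It had the highest value of any member, 4.9 in control and 4.3 after IL-4, above 98.5% and 98.6% of genes. The centred ratio was 0.19 (0.16 to 0.22). That value belongs to a segment of 112 bp in intron 2, annotated as a (CAAA)n simple repeat in control and, 269 bp long after IL-4, as a B1_Mus2 SINE. With repeat segments left out the ratio was 0.43, but it compared different sites. The control score of 1.3 lay in intron 2, whereas the IL-4 score of 1.4 lay in the last exon. Matched by position, that intron 2 segment went from 1.3 to 0.5, where it was annotated as a (TC)n repeat. The last-exon segment went from 0.8 to 1.4. Neither choice gave a 2-fold difference in the highest score of the gene, which is not a measure of 1 site.

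At the promoter of Pik3r1 the transcript on the gene's strand began 23 bases past the start site in control and 35 after IL-4. It had a score of 1.2 over 235 bp in control and of 1.0 over 1097 bp after IL-4. The divergent transcript had a score of 0.2 over 279 bp and of 0.4 over 530 bp. At the other end of the gene, a segment in the last exon, in the 3′ UTR, had 0.8 in control and 1.4 after IL-4.

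Pik3r1 had 19 named transcripts in control and 35 after IL-4. Own-strand coverage was 4.37% of the gene (3829 bp) and 14.3% (12506 bp), and the mean score over covered bases was 0.544 and 0.394. The summed signal was 2084 and 4926, a centred ratio of 1.11 (0.79 to 1.43), and it was 1.24 without repeat segments. In the 4 equal parts from the start the ratios before centring were 3.06, 1.99, 2.02 and 1.59, the first of them from 928.8 in control and 2842 after IL-4. All 4 parts had more signal after IL-4, also without repeat segments, where the ratios were 4.30, 2.39, 5.67 and 1.36 and part 1 no longer had the largest. Among the 16 matched pairs, 4 had a higher printed score after IL-4, 5 an equal one and 7 a lower one, and 13 were longer, or 81.2%, against 71.2% of all matched pairs.

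Akt1, the kinase downstream of PIP3 (chr12:112653821-112674884, minus strand), had a highest score of 0.4 in control against 0.2 with IL-4, a ratio of -0.62 (-1.21 to -0.11). It had 6 named transcripts in control and 3 after IL-4, all of them in introns 1 and 2. The segment that gave the control value, 7538 bases into the gene, had 0.1 after IL-4, while its neighbours had 0.1 and 0.2 in control and 0.2 and 0.2 after IL-4. Own-strand coverage was 10.6% and 11.6%, the mean score over covered bases was 0.186 and 0.135, and the summed signal was 414.7 and 330.2. The centred ratio of the sums was -0.46 (-1.47 to 0.45), which spans 0.

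Beyond the members, 69 genes of the same pathway were counted, grouped by role. A value was present in both libraries for 56, in control only for 3, after IL-4 only for 4, and in neither for 6. Of the 56, 5 were at least 2-fold higher and 10 at least 2-fold lower, or 8.93% and 17.9%, beside 8.06% and 8.62% of all genes, and the list's median was -0.32 against 0 for all genes. The difference held across the rounding range for 8 of these 15. These counts describe the list and were not tested against other genes.

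The receptor and its feedback inhibitor stood at the high end. Il4ra, the IL-4 receptor alpha chain that recruits IRS2, had 0.9 in control and 2.2 after IL-4 (ratio 1.67), and by summed own-strand signal its ratio was 3.51. Socs1, which inhibits JAK kinases, had 0.3 and 2.5 (3.44, and 5.96 by summed signal). Rheb, the GTPase that activates mTORC1, had 0.5 and 1.0 (1.38), but the summed signal gave -1.01, the opposite direction.

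The genes at the low end included adaptors, phosphatases and kinases. Jak1, the kinase on the receptor, had 7.5 in control and 2.8 after IL-4 (-1.04, and -0.95 by summed signal). Gab3, a docking adaptor, had 1.4 and 0.2 (-2.43, and -3.11). Inpp4a, a lipid phosphatase acting after PIP3, had 2.3 and 0.7 (-1.34, and -0.77), and the related Inpp4b had 0.5 in control and no called transcript by name after IL-4. Phlpp1, a phosphatase that dephosphorylates AKT, had 1.1 and 0.2 (-2.08, and -2.22). Akt2 had 2.7 and 0.8 (-1.38), whereas its summed signal gave 1.27, so its direction depended on the measure. By role and highest score, 3 of 6 lipid and AKT phosphatases and 3 of 9 docking proteins and adaptors were at least 2-fold lower. So were 2 of 12 kinases, and no gene of these roles was higher by that measure. By summed signal, Shc1 (1.83), Gab2 (1.35) and Akt2 (1.27) passed 2-fold higher. Gab1 (-3.06), Gab3, Phlpp1, Inppl1, Sgk1 (-1.33) and Deptor (-1.79) passed 2-fold lower. Mtor, called lower with Akt2, had -1.21 by highest score (-1.74 to -0.76) but -0.30 by summed signal. Of these genes, all but Akt2, Gab3 and Phlpp1 were named after their values were seen. By highest score, in turn, 2 of 5 negative regulators and 2 of 10 AKT targets were higher and none lower. The receptors and JAKs had 1 higher and 2 lower of 8, and none of the 6 other PI3K subunits passed 2-fold. Those 6 subunits, named here after their values were seen, differed more by summed signal. Pik3r6 had -2.41, Pik3r5 -1.57, Pik3c3 -1.37 and Pik3c2a -1.12, while Pik3r4 had 0.49 and Pik3r2 1.01. By that measure all but Pik3r4 passed 2-fold, beside 16.6% of all genes at least 2-fold higher and 16.7% lower. Rounding ranges were not computed for these sums, and some rest on few own-strand segments. Pik3r2 had 2 in control and 1 after IL-4, Pik3r6 5 and 1, and Pik3c3 5 and 2, while Pik3r5 had 44 and 27. Both AKT targets called higher, Rheb and Tsc2, had ratios below 0 by summed signal (-1.01 and -0.50), and Tsc2, an inhibitor of mTORC1 signalling named here after its values were seen, had scores of only 0.1 and 0.2.

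**Figure D5:**
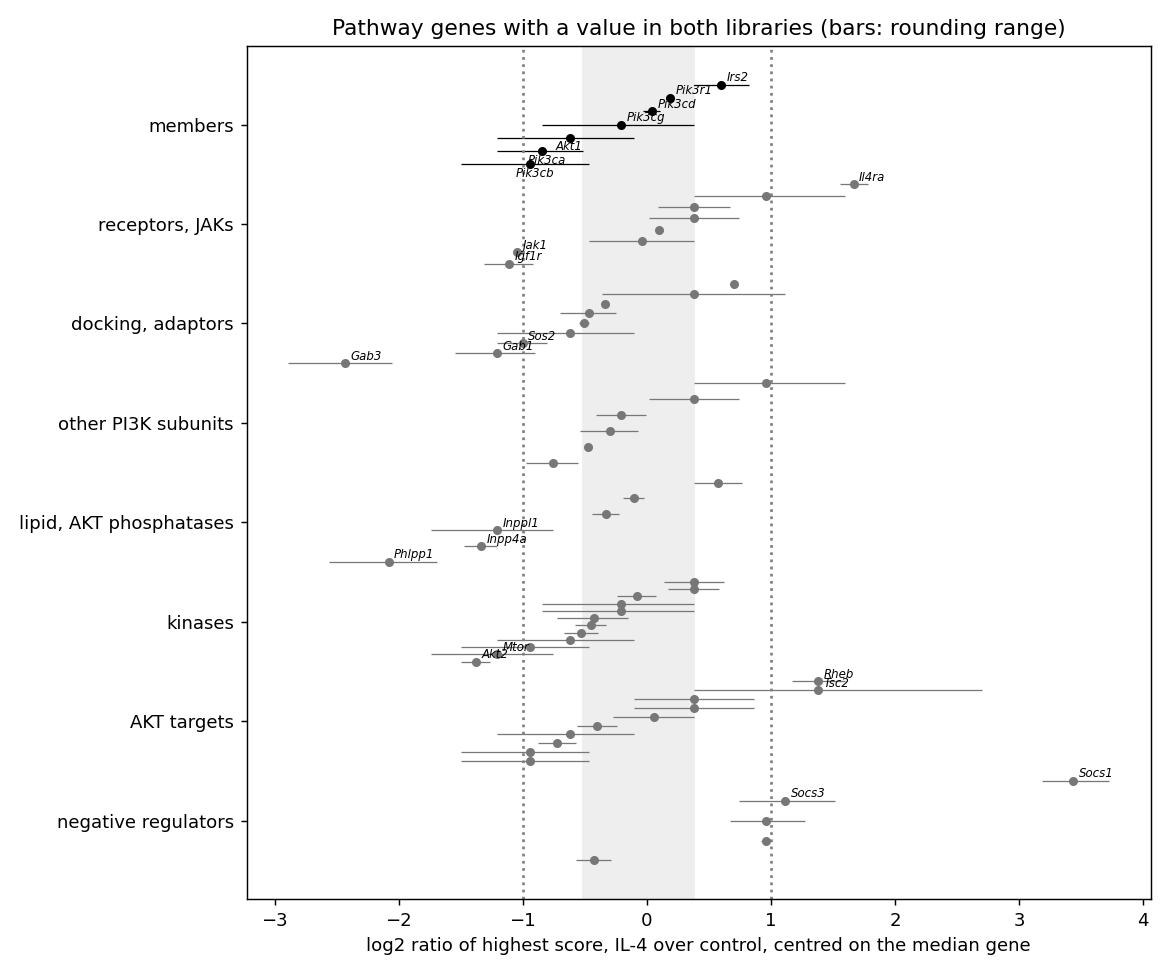
Centred log2 ratio of the highest score, IL-4 over control, for the 7 members (black) and the 56 other pathway genes (grey) with a value in both libraries, grouped by role. Bars show the rounding range, the shaded band the quartiles of all genes (-0.51 to 0.38) and dotted lines 2-fold. The members lie between -0.94 and 0.60, while Socs1 (3.44) and Gab3 (-2.43) mark the ends of the pathway list.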

How the data were processed

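The authors aligned GRO-seq reads to mm10 (GRCm38) with BWA and called transcripts in each library alone with HOMER. The submitters' processing notes name BWA 0.7.10, SAMtools 0.1.19 and HOMER 4.2. Per the file headers, the deposited value is a peak score per transcript, rounded to 1 decimal; its scaling and the sequencing depth are not given in the sources used here. Libraries were grouped by their treatment label.

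Members and gene lists were chosen with earlier results of these data known. A gene's value was its highest score by name. Ratios were centred on the median gene, and 2-fold was the limit for a difference. Own-strand overlap (at least 1 bp) used GENCODE M21. Promoter sequences and start sites came from RefSeq (GRCm38.p6), and all 8 members matched. Named in the text were all members and pathway genes past 2-fold over the whole rounding range (or in 1 library only with a score of at least 0.5). The rule also took the 5 genes nearest Irs2 in summed signal, a result that is not reported here. Socs1, Mrc1, Csf1r and Cd68 came from marker lists, and 9530052E02Rik was named after its values were seen because it overlaps Irs2. Python 3.11.15, numpy 2.4.6, pandas 2.3.3 and matplotlib 3.10.9 were used, and the ratio code was tested on simulated data. Alternatives covered the gene value, centring, repeats, segment length, low scores and a pseudocount.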

Additional observations from a re-analysis of the deposited data

How the results depend on the processing

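No paired analysis was possible because each condition had 1 library, and for the same reason no library could be left out. No own-strand ratio of at least 2-fold changed sign under the 3 alternatives added to it. By highest score, 0 members were 2-fold higher and 0 lower; the lower count was 2 with the sum of scores, the sum of score times length, the transcript nearest the TSS and without repeat segments, 1 with segments of at least 100 bp and with centring on genes of at least 0.5, and 3 without centring. The higher count was 3 with either sum of score times length, and the own-strand sum had 1 lower. The members' median of -0.21 was 0.41, 0.29 and 0.87 with the sum of scores, score times length and own-strand sum, and -0.58 without centring. Over all genes, the 716 higher and 765 lower were 1208 and 1219 with the sum of scores, 1529 and 1500 with score times length, 1353 and 1366 on the own strand, and 446 and 460 with a pseudocount of 0.1. The lower count was 2460 for the transcript nearest the TSS and 2161 without centring, and 411 were higher among genes of at least 0.5. Chosen after seeing the data, alternatives to the own-strand sum gave a members' median of 0.50 without repeats and 2 lower members with scores above 0.1 only. By the 11 alternatives to the highest score, Irs2 stayed above 0 (0.22 to 0.87) and Pik3cb below 0 (-2.99 to -0.58). These alternatives reuse the same few segments. Before centring, the printed Irs2 scores of 0.6 and 0.7 could come from equal scores within rounding. Among own-strand sums Irs2 was 0.87, 1.38 without repeats, 1.88 with scores above 0.1 only and 1.00 without centring. Without centring, Pik3cd (-0.34) and Pik3r1 (-0.19) were below 0. For the transcript nearest the TSS in HOMER's annotation, Pik3r1 and Pik3cg had -1.58, but different segments then stood for each library. For Pik3r1 they were the gene-strand promoter transcript in control (1.2) and the divergent one after IL-4 (0.4). For Pik3cg they were the intron 10 segment in control (0.3) and the exon 2 segment after IL-4 (0.1). The cause of the other shifts was not tested.

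With 1 library per condition, differences between cultures and between conditions cannot be told apart. Scores of 0.1 to 0.3 are uncertain by 0.05 from rounding, which limits Pik3cg, Akt1, Pik3cb and the Irs2 gene body most.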
